A study of Mus musculus with 8 samples.

Results

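NF-kB is a family of transcription factors that drives inflammatory gene expression, and the genes described here encode its 5 subunits (Nfkb1, Nfkb2, Rel, Rela and Relb) together with 5 proteins that restrain or modify it (Nfkbia, Nfkbib, Nfkbie, Nfkbiz and Tnfaip3). The members were taken by gene symbol from a deposited expression table, and these 10 genes of the 22063 in the table were compared between tranilast-treated and control libraries. All 10 passed the filter on low counts, which left 10770 genes for testing.

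The data were 8 RNA-seq libraries of mouse RNA, 4 in a Control group and 4 in a Control+tranilast group, all of genotype WT and all with the tissue given as liver. Per the study's methods the HFHC model used young male C57BL/6J mice. The diet shared by both groups, rich in fat and cholesterol (HFHC), is taken from the series design, since the sample labels name no diet. Tranilast is an anti-allergic drug, and in that model it or vehicle was given by daily gavage over the later weeks of the diet. More than 1 dose was used, and the one behind the sequenced libraries is not named in the sources used here. The labels do not say that the libraries of a group came from separate animals, so p-values measure the spread between these libraries, which may be technical.

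In resting cells, NF-kB dimers are held in the cytoplasm by inhibitors of the IkB family. Receptors for cytokines or microbial products activate the IkB kinase, IkB proteins are degraded, and the freed dimers enter the nucleus. Genes for several inhibitors, among them Nfkbia and Tnfaip3, are themselves targets of NF-kB, which gives the pathway its negative feedback, and a slower non-canonical branch works through NIK, Nfkb2 and Relb. In the liver the pathway is known from macrophages, which it drives to make cytokines, and from hepatocytes, where it also controls survival.

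Library totals were between 14585153 and 15618787 estimated counts in the control group and between 12053036 and 14679386 in the tranilast group, and 3 counts, the most that a 0 can hide, were worth 0.192 to 0.249 CPM (counts scaled to the same library total). These limits cover counting error only. Members had between 223 and 3116 counts in any library, so none was near that limit. The tissue label was checked against marker genes. The 10 hepatocyte markers together took between 1.99e-04% and 4.39e-04% of control counts and between 4.78e-04% and 7.17e-04% of tranilast counts, ranges that did not overlap. Of these markers 5 were at 0 in all libraries, and Alb, the gene for serum albumin, had between 0 and 2 counts. Most of the rest was Trf, the transferrin gene, with 30 to 63 counts in control and 48 to 81 in tranilast libraries (log2 fold change 0.53, SE 0.206, edgeR adjusted p = 0.0349), the only called marker of the 2 tested. Its part in the results below was not tested. The 15 macrophage markers took between 0.937% and 0.996% of control counts and between 0.916% and 0.975% of tranilast counts, with Cd163 at 0 in all 8 libraries. Only 9 of the 15 passed the filter on low counts. Much of the share came from few genes, among them Lyz2 with 51270 to 68970 counts per library. Of the 4 Kupffer cell markers, Clec4f, Vsig4 and Timd4 were at 0 in all libraries, and lymphocyte and neutrophil markers were each at or below 6.15 counts in any library. The defining markers of hepatocytes were thus near 0, and the values below describe a population rich in macrophage transcripts under a liver label. The diet and the dosing by gavage given above rest on the series design and the study's methods, and were not tested by these values.

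Promoter stretches are shown for Tnfaip3, Rel, Nfkbia and Nfkbie because each holds, just before its start site, letters that match the NF-kB binding consensus. The stretches end at or next to a RefSeq start site (build GRCm38.p6), lie outside annotated exons and run 5′ to 3′ on the strand of the gene. The capitals mark matches to the kappaB consensus on either strand, with overlapping matches joined.
Tnfaip3: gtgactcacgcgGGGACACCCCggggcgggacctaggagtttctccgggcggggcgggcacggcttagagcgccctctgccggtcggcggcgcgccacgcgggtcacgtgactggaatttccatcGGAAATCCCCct
Rel: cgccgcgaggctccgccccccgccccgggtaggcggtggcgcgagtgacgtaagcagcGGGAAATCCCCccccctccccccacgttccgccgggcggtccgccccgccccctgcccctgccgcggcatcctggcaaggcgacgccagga
Nfkbia: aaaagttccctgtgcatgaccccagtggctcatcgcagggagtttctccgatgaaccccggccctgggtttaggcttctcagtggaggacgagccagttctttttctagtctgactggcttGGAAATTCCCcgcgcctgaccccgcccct
Nfkbie: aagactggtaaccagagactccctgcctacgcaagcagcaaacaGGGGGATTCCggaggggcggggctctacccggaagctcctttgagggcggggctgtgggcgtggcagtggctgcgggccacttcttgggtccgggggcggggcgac

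The Tnfaip3 stretch is chr10:19015411-19015547 on the minus strand. It precedes a RefSeq start site of the gene but lies in an intron of a GENCODE transcript that begins further upstream, at 19015657. The stretch before another RefSeq start site of Tnfaip3, at 19011963, held 0 matches to the consensus and is not shown. The Rel stretch is chr11:23770971-23771119 on the minus strand, the Nfkbia stretch chr12:55492648-55492797 on the minus strand, and the Nfkbie stretch chr17:45555550-45555699 on the plus strand. Counted from the start site that each shown stretch precedes, the matches lay at -125 to -116 and at -12 to -3 in Tnfaip3, at -92 to -82 in Rel, at -29 to -20 in Nfkbia and at -106 to -97 in Nfkbie. In Nfkb2 the matches GGGAATTCCC and GGGGCTTTCC lay at -39 to -30 and at -11 to -2 from one of its RefSeq start sites, on chromosome 19 at position 46304737. Windows from 250 bases before to 50 after a start site were listed for 7 of the 10 members, and 5 of these held the consensus, the other two being Rela and Nfkbib. The windows of Nfkb1, Relb and Nfkbiz were not used here. Among all 32851 windows 8.46% held the consensus, and among the 8613 tested genes with a window 12.2% did. A second pattern, GGGNNNTTCC, which shares many but not all matches with the consensus and was likewise searched on both strands, was in 5.56% of all windows and in the same number of members, 5 of 7. A match describes letters and not a bound site. Genes with the consensus did not move one way: of 1051 tested genes that held it, 28.2% were higher and 31.8% lower with tranilast, against 29.1% and 28.8% of 7568 genes without it, counted here by Ensembl identifier, of which a few share a symbol.

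Tranilast libraries had more transcript of Nfkb2, Relb, Rela, Nfkbib and Nfkbie and less of Nfkb1, Nfkbia and Tnfaip3, and no member changed by much. On the log2 scale the largest difference was that of Tnfaip3, at -0.41 (-24.9%), and the largest rise that of Relb, at 0.39 (31.4%). By edgeR's quasi-likelihood test with a Benjamini-Hochberg adjusted p under 0.05, 8 of the 10 members were called, 5 higher and 3 lower. The background was high, as 57.0% of all tested genes were called, 28.2% higher and 28.8% lower. By the scaling described below, the groups did not overlap for 6 members, 3 above and 3 below, beside 49.8% of all tested genes, 24.5% above and 25.2% below. The member median log2 fold change was 0.10 against 0.01 over all tested genes, and the median absolute value 0.24 against 0.21. With a log2 fold change of 1.5 or more in size required as well, the threshold named in the study's methods, 0 members and 120 tested genes (1.11%) passed, and the count of members was also 0 at an unadjusted p under 0.05, with DESeq2 and with limma-voom.

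The counts were scaled by TMM, the trimmed mean of M values, which sets most genes near no change. The TMM factors of all 4 tranilast libraries, 1.037 to 1.045, lay above those of the control libraries, 0.956 to 0.964. Scaling by library size alone moved the median of all genes by 0.12 on the log2 scale, and the share of called genes that were higher went from 49.5% to 70.9% (42.8% of all tested genes higher and 17.6% lower). Under that scaling Nfkbia lost its call (log2 fold change -0.03, adjusted p = 0.424, over the 20 alternatives 0.000484 to 0.424), Rel changed sign and Nfkbiz gained a call, while the other 7 called members kept direction and call. Which members overlapped between the groups also depended on the scaling. On the deposited FPKM, scaled by the authors for transcript length and depth, Nfkbia overlapped, and Rela and Nfkbib did not. The share of all tested genes without overlap was not counted on FPKM. Changes and overlaps of single genes are given below relative to TMM, unless FPKM is named.

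**Figure D1:**
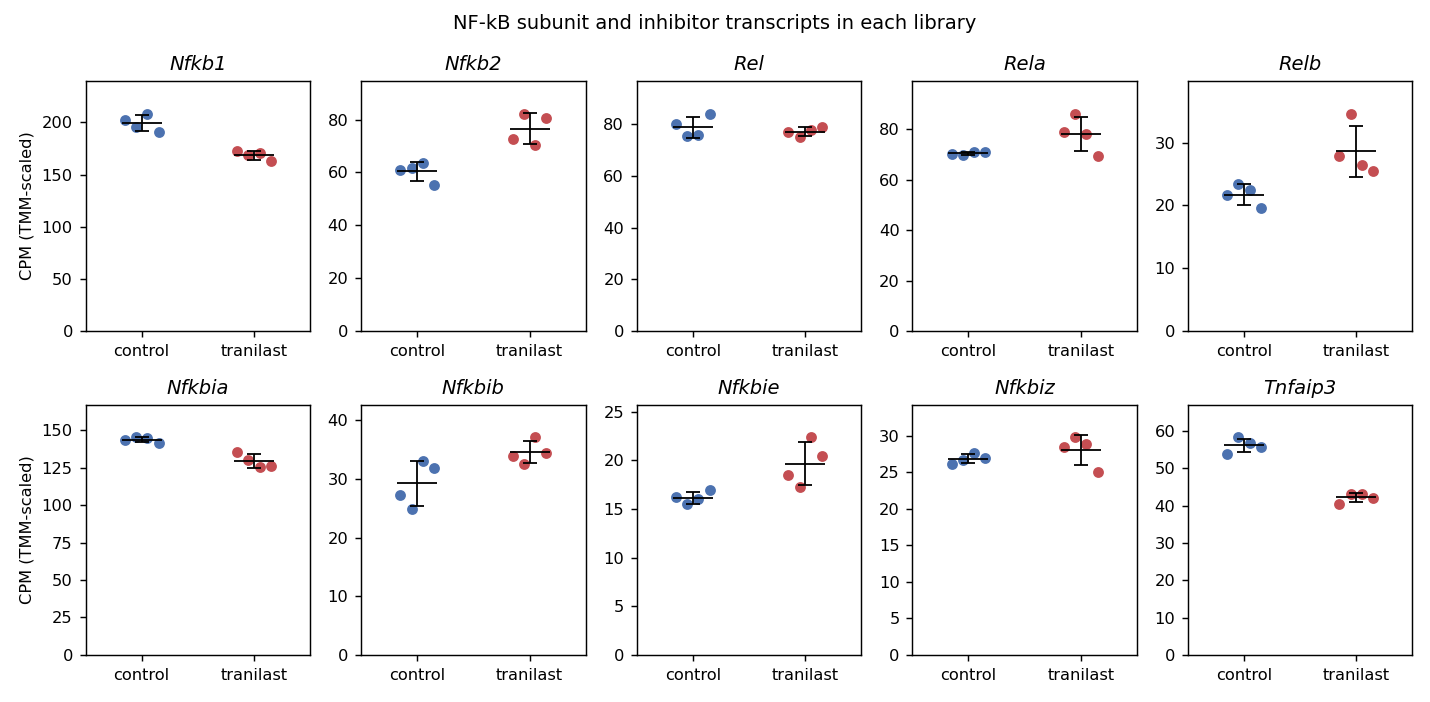
TMM-scaled CPM (vertical axis from 0) of the 10 members in each of the 4 control and 4 tranilast libraries. Points are libraries, the long bar is the mean and the short bars are 1 SD. Nfkb2, Relb and Nfkbie lie wholly above the controls and Nfkb1, Nfkbia and Tnfaip3 wholly below, and the groups overlap for Rel, Rela, Nfkbib and Nfkbiz.

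Among the subunits, Nfkb1 (ENSMUSG00000028163, chromosome 3, positions 135584655 to 135691547, GRCm38 in GENCODE M21) encodes the precursor of the small DNA-binding subunit of the canonical dimer. Its control libraries had 202, 195, 208 and 191 CPM and its tranilast libraries 172, 169, 170.5 and 162 CPM. Every tranilast library was below every control library. The mean went from 199.0 ± 7.74 to 168.6 ± 4.28 CPM (SD, n = 4 each), a log2 fold change of -0.24 with a standard error of 0.0354 (edgeR adjusted p = 1.45e-05). The exact two-sided permutation test gave p = 0.0286, the smallest that 4 libraries against 4 can give.

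Nfkb2 (ENSMUSG00000025225, chromosome 19, 46304320 to 46312385) encodes the precursor processed in the non-canonical branch. It had 61.1, 61.6, 63.6 and 55.4 CPM in the control libraries and 72.6, 82.2, 70.5 and 80.8 CPM with tranilast. All 4 tranilast libraries were higher than all controls. The mean rose from 60.4 ± 3.51 to 76.5 ± 5.83 CPM (log2 fold change 0.34, SE 0.0568, edgeR adjusted p = 5.25e-05, exact permutation p = 0.0286). Exons of Nfkb2 overlap those of Psd on the opposite strand, which had at most 32 counts in any library.

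Relb (ENSMUSG00000002983, chromosome 7, 19606217 to 19629438) encodes the partner of the processed Nfkb2 product. Control libraries had 21.7, 23.3, 22.4 and 19.5 CPM and tranilast libraries 27.8, 34.6, 26.4 and 25.5 CPM. The groups did not overlap, and tranilast replicate 2 was the highest library. Relb had the largest rise of the members, from 21.7 ± 1.62 to 28.6 ± 4.11 CPM (log2 fold change 0.39, SE 0.0919, edgeR adjusted p = 0.00134), and 24.8% of all tested genes had a larger absolute change.

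Rela (ENSMUSG00000024927, chromosome 19, 5637483 to 5648130) encodes the transactivating subunit of the canonical dimer. Its control libraries were tightly grouped at 70.5, 69.9, 71.1 and 71.2 CPM, and its tranilast libraries had 79.1, 86.3, 78.2 and 69.6 CPM. On TMM-scaled CPM, tranilast replicate 4 was below all controls and the other 3 above them, so the groups overlapped. On the deposited FPKM they did not, with 24.8 to 25.7 in control and 26.8 to 33.8 in tranilast libraries. The log2 fold change was 0.15 (SE 0.0539, edgeR adjusted p = 0.0271) and the exact permutation p was 0.143. The call was lost without any one of control replicates 1, 2 and 3 or tranilast replicates 1 and 2, and the adjusted p reached 0.122 and the log2 fold change 0.10 without tranilast replicate 2. It was also lost once trends with GC content and transcript length were removed (log2 fold change 0.08, adjusted p = 0.209, over the alternatives 0.000383 to 0.209). The change was larger by library size (0.26, edgeR adjusted p = 0.000383) and with upper-quartile scaling (0.21, edgeR adjusted p = 0.00231).

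Rel (ENSMUSG00000020275, chromosome 11, 23736847 to 23770970) encodes c-Rel, a subunit mostly of blood cells. Control libraries ranged from 75.2 to 84.0 CPM and tranilast libraries from 74.8 to 78.8 CPM. These ranges overlapped, and no difference was called (log2 fold change -0.03, SE 0.0449, edgeR adjusted p = 0.596), with the sign positive, at 0.09, under library size scaling.

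Among the classical IkB inhibitors, Nfkbia (ENSMUSG00000021025, chromosome 12, 55489410 to 55492647) encodes IkB alpha, the fast feedback inhibitor whose promoter is shown above. It had 144, 145, 145 and 141 CPM in the control libraries and 136, 130.1, 126 and 126 CPM with tranilast. All tranilast libraries were below the controls on CPM, by a small margin. On the deposited FPKM the groups overlapped, with 86.1 to 88.0 in control and 82.8 to 89.2 in tranilast libraries. The mean fell from 143.8 ± 1.78 to 129.5 ± 4.63 CPM (log2 fold change -0.15, SE 0.0356, edgeR adjusted p = 0.00151), a call kept under 16 of the 20 alternatives and lost under 4 that change the scaling or the unit.

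Nfkbib (ENSMUSG00000030595, chromosome 7, 28758251 to 28767512) encodes IkB beta, a slower inhibitor. Control libraries had 27.2, 24.9, 33.02 and 31.8 CPM and tranilast libraries 33.9, 32.6, 37.1 and 34.4 CPM. Control replicate 3 lay within the tranilast range on CPM. On the deposited FPKM the groups did not overlap, with 18.7 to 25.3 in control and 27.1 to 30.8 in tranilast libraries. The log2 fold change was 0.24 (SE 0.0807, edgeR adjusted p = 0.0184, exact permutation p = 0.0571). Leaving out control replicate 1, control replicate 2 or tranilast replicate 3 raised the adjusted p to 0.0608, 0.0711 or 0.0569. Exons of Nfkbib overlap those of Sirt2, a deacetylase gene on the opposite strand with up to 918 counts and a log2 fold change of 0.17 (SE 0.0561, edgeR adjusted p = 0.0164). Whether the counting used strand is not given in the sources used here, so reads of the shared exons cannot be told apart.

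Nfkbie (ENSMUSG00000023947, chromosome 17, 45555703 to 45563169) encodes IkB epsilon, a delayed feedback inhibitor. It had 16.2, 15.5, 15.98 and 17.0 CPM in the control libraries and 18.5, 17.3, 22.4 and 20.4 CPM with tranilast. The lowest tranilast library was just above the highest control. The mean went from 16.2 ± 0.611 to 19.6 ± 2.22 CPM (log2 fold change 0.28, SE 0.0896, edgeR adjusted p = 0.0125), and without tranilast replicate 3 the adjusted p was 0.0514.

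Tnfaip3 (ENSMUSG00000019850, chromosome 10, 19000910 to 19015657) encodes A20, a ubiquitin-editing enzyme that shuts off signalling upstream of the IkB kinase. Control libraries had 53.9, 58.3, 56.7 and 55.7 CPM and tranilast libraries 40.5, 43.1, 43.2 and 42.0 CPM. The lowest control library, at 53.9 CPM, was well above the highest tranilast library, at 43.2 CPM. The mean fell from 56.1 ± 1.83 to 42.2 ± 1.25 CPM (log2 fold change -0.41, SE 0.0484, edgeR adjusted p = 9.53e-07, exact permutation p = 0.0286), and 20 of 20 alternatives kept the call.

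Nfkbiz (ENSMUSG00000035356, chromosome 16, 55811375 to 55838899) encodes IkB zeta, a nuclear IkB protein that acts on transcription of secondary response genes. Its libraries ranged from 26.1 to 27.7 CPM in the control group and from 25.1 to 29.8 CPM with tranilast. The ranges overlapped and no difference was called (log2 fold change 0.06, SE 0.0684, edgeR adjusted p = 0.467), except under library size scaling (0.18, adjusted p = 0.0320, over the alternatives 0.0320 to 0.882).

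**Figure D2:**
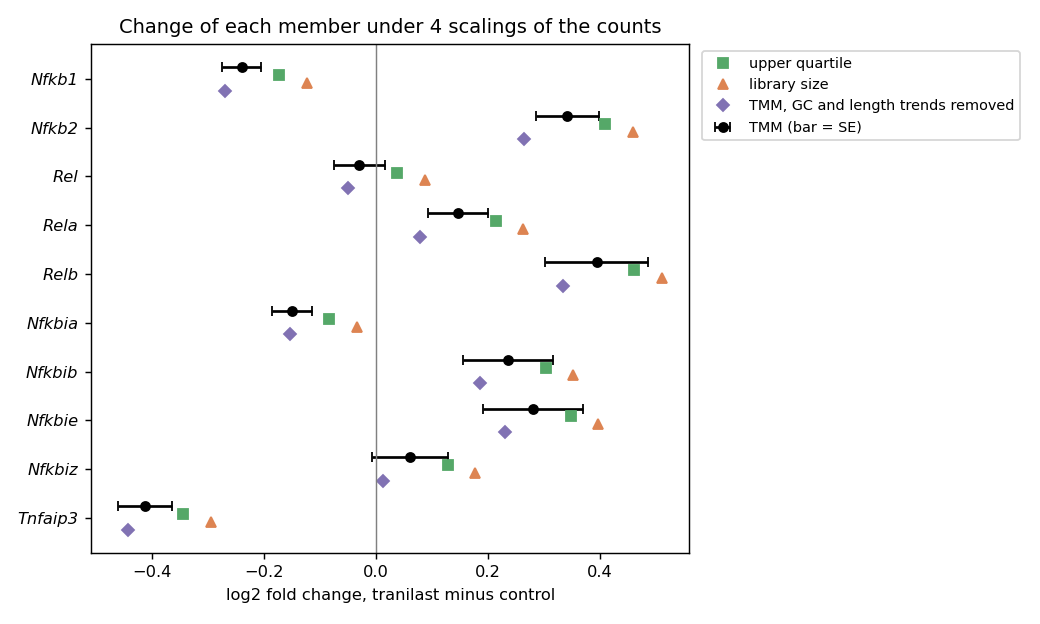
Log2 fold change (tranilast minus control, horizontal axis) of each member under 4 scalings of the counts, with the standard error of the TMM fit as the bar. The order of the members is the same under all 4, the whole set is shifted upward under library size scaling, and Rel crosses 0 there and under upper-quartile scaling.

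The members called higher and the others also differed in base composition. The longest annotated transcripts of Nfkb2, Rela, Relb, Nfkbib and Nfkbie had a GC content of 55.4% to 59.4%, and those of the other 5 members 42.5% to 52.9%. The tested genes in the higher range, 1627 in number, had a median log2 fold change of 0.02, with 30.7% called higher and 28.0% lower. The 5624 tested genes in the lower range had a median of 0.01, with 28.4% and 28.9%. With trends in GC content and transcript length removed, a step chosen after the data were seen, Rela was the only member of the 8 to lose its call, and Relb stood at 0.33, Nfkb2 at 0.26, Nfkb1 at -0.27 and Tnfaip3 at -0.44.

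Levels between genes were compared per length, on the deposited FPKM. In the control libraries Nfkbia was highest at 87.5 ± 0.899 FPKM and Nfkb1 next at 61.3 ± 2.30. Then came Rela at 25.4 ± 0.375, Nfkbib at 22.4 ± 3.10, Nfkb2 at 18.9 ± 1.22 and Tnfaip3 at 12.6 ± 0.356 FPKM. The lowest levels were those of Rel at 10.1 ± 0.562, Relb at 9.79 ± 0.787, Nfkbiz at 7.06 ± 0.143 and Nfkbie at 6.37 ± 0.259 FPKM. The highest and the lowest member differed 13.7-fold. Neighbours whose control ranges overlapped were Rela and Nfkbib, Nfkbib and Nfkb2, and Rel and Relb. With tranilast Tnfaip3 stood below Rel and Relb, at 9.94 ± 0.306 FPKM against 10.8 ± 0.236 and 13.6 ± 1.96, whereas in the control libraries it stood above both.

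**Figure D3:**
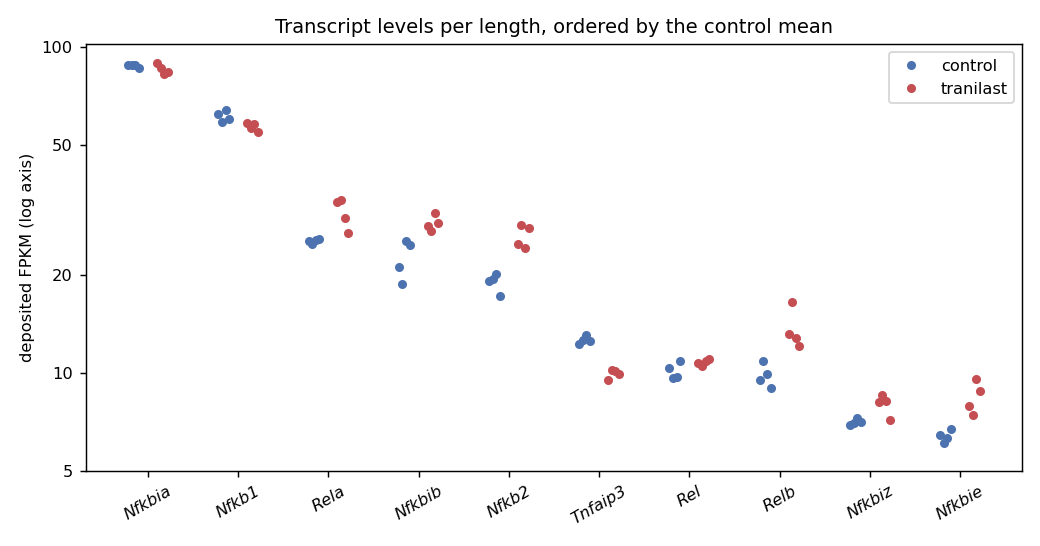
Deposited FPKM (log axis) of each member in the 4 control and 4 tranilast libraries, ordered by the control mean. Points are libraries. Nfkbia and Nfkb1 are far above the others, and Tnfaip3 passes from above Rel and Relb in the control libraries to below them with tranilast.

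Ratios of counts within a library do not depend on how libraries are scaled. They were formed for the 20 pairs of members within the subunits and within the inhibitors, a comparison added after the values were seen. Of these, 15 did not overlap between the groups, 8 of 10 among the subunits and 7 of 10 among the inhibitors, beside 47.4% of all pairs of tested genes with a count in every library. The pairs share members, so they are not independent. Each such pair had an exact two-sided permutation p of 0.0286, and 0.0381 after Benjamini-Hochberg adjustment over the 20 pairs. Where a member wholly above the controls was divided by a member wholly below them, the ratio had to separate. This holds for Nfkb2 and Relb to Nfkb1 and for Nfkbie to Nfkbia and to Tnfaip3. Their p-values add nothing to the values of the single genes.

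The ratio of Nfkb2 to Nfkb1 counts was 0.302, 0.316, 0.305 and 0.291 in the control libraries and 0.421, 0.487, 0.414 and 0.497 with tranilast. It was higher in all 4 tranilast libraries, by 0.58 on the log2 scale. Relb rose against Nfkb1 by 0.63 and against Rela by 0.24, while Relb against Nfkb2 differed by 0.05 with overlapping groups (exact permutation p = 0.686). The 2 non-canonical subunits were thus both higher relative to Nfkb1, and no difference between them was detected.

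Among the inhibitors, the ratio of Nfkbie to Nfkbia was 0.113, 0.107, 0.110 and 0.120 in the control libraries and 0.136, 0.133, 0.178 and 0.162 with tranilast. This was a difference of 0.43 on the log2 scale, and that of Nfkbib to Nfkbia was 0.40. Nfkbia and Tnfaip3, both called lower, differed from each other, with a ratio of 2.67, 2.49, 2.55 and 2.54 in the control libraries and 3.35, 3.02, 2.91 and 3.01 with tranilast. The fall of Tnfaip3 was thus larger than that of Nfkbia, by 0.26 on the log2 scale, and the ratios of Nfkbie and Nfkbib to Tnfaip3 rose by 0.69 and 0.66.

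**Figure D4:**
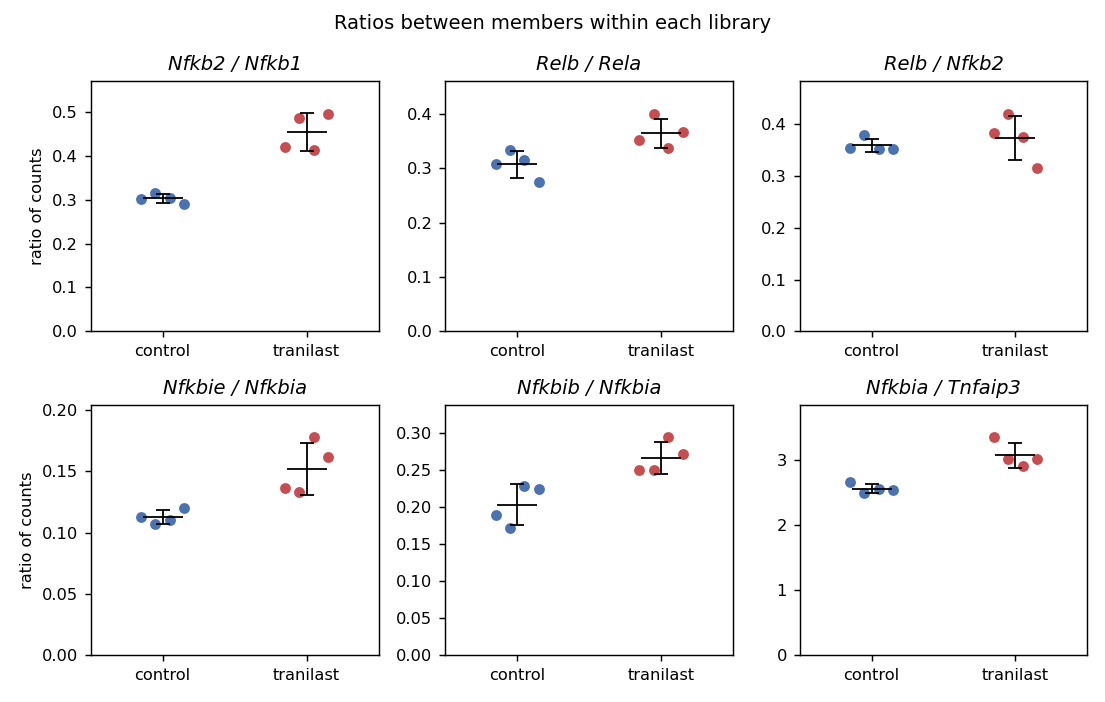
Ratio of counts (vertical axis from 0, no unit) for 6 pairs of members in each library, with the mean and 1 SD. The other pairs are wholly higher with tranilast, and the ratio of Relb to Nfkb2 overlaps between the groups.

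The other genes of the pathway were described from lists by role, 138 genes in all, of which 114 were tested. Of these, 25 were called higher (21.9%) and 41 lower (36.0%), with a median log2 fold change of -0.07, beside 28.2% and 28.8% of all tested genes. With library size scaling the split turned to 39 higher and 22 lower, as that of all tested genes moved to 42.8% higher and 17.6% lower. The counts of the lists below are to be read beside the shares of all tested genes under the same scaling. The NF-kappa B signalling pathway of the deposited KEGG annotation, with 79 tested genes, had 21 higher and 34 lower by TMM and 31 and 19 by library size. It was counted whole, so it includes the members Nfkb1, Nfkb2, Rela, Relb, Nfkbia and Tnfaip3, and genes of the lists were not taken out. Macrophage markers moved as well, with 2 of the 9 tested higher and 6 lower (2 and 2 by library size), among them Adgre1 at 0.21, the lysozyme gene Lyz2 at -0.13 (-0.01 by library size) and Csf1r, the receptor for a macrophage growth factor, at -0.16 (edgeR adjusted p = 6.82e-06, and -0.04 with adjusted p = 0.104 by library size). Their part in the members' changes was not tested, and in bulk libraries fewer cells of a type and less RNA per cell cannot be told apart.

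The other atypical IkB genes were lower, 3 of 3 tested (2 by library size). Bcl3, a nuclear IkB protein that pairs with the products of Nfkb1 and Nfkb2, had 13.7 ± 1.41 CPM in control and 8.98 ± 1.34 CPM in tranilast libraries (log2 fold change -0.61, SE 0.119, edgeR adjusted p = 0.00026). Nfkbil1 stood at -0.52 (SE 0.0834), and Nfkbid at -0.27 (SE 0.074), a call that library size scaling ended (adjusted p = 0.0797).

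Of 13 genes for kinases of the pathway and for their regulatory or adaptor subunits, 4 were higher and 5 lower, and 6 and 2 by library size. Within the IkB kinase complex, the regulatory subunit Ikbkg rose from 46.3 ± 1.51 to 57.9 ± 1.77 CPM (0.32, SE 0.0477, edgeR adjusted p = 1.39e-05) and the catalytic subunit Chuk to a lesser degree (0.12, SE 0.0413, adjusted p = 0.0175). The adjusted p of Chuk was 0.0535 without control replicate 3 and 0.0549 without control replicate 4. Ikbkb, the catalytic subunit whose phosphorylation the study examined on blots, had 84.6, 79.3, 81.4 and 88.4 CPM in the control libraries and 81.4, 71.95, 70.04 and 77.1 CPM with tranilast. The groups overlapped, and its log2 fold change of -0.15 (SE 0.0513, edgeR adjusted p = 0.0192) became -0.03 (adjusted p = 0.605) by library size and lost its call when control replicate 4, or replicate 2 or 3 of the tranilast group, was left out. Ikbke, an IkB kinase relative, stood at 0.16 (SE 0.0578, adjusted p = 0.0268) and lost its call without control replicate 2 or 3 or tranilast replicate 3.

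Map3k14, which encodes NIK, the kinase of the non-canonical branch, had 39.3, 35.9, 37.3 and 33.8 CPM in the control libraries and 23.1, 27.4, 27.2 and 29.8 CPM with tranilast. All tranilast libraries were lower, opposite to Nfkb2 and Relb (log2 fold change -0.44, SE 0.0751, edgeR adjusted p = 6.47e-05). Map3k1 also fell, by 0.37 (SE 0.0425), as did Tab2, an adaptor of the TAK1 kinase, by 0.16, a call that library size scaling ended (adjusted p = 0.329).

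Among 26 tested adaptors and ubiquitin ligases 5 were higher and 9 lower, and 10 and 4 by library size. Ripk1, the kinase and scaffold of the TNF receptor complex, went from 78.0 ± 1.85 to 110.6 ± 1.54 CPM (0.50, SE 0.0377, edgeR adjusted p = 2.63e-09). Btrc and Fbxw11 encode alternative receptor subunits of the ubiquitin ligase that marks IkB for degradation, and they moved apart, Btrc by 0.33 (SE 0.0891) and Fbxw11 by -0.29 (SE 0.0366). Rnf31, a catalytic subunit of the linear ubiquitin ligase, stood at -0.34 (SE 0.0743), and Traf5, low at 4.47 ± 0.534 CPM in the control libraries, rose to 6.92 ± 1.41 CPM. Ticam2, a Toll-like receptor adaptor, stood at -0.30 (SE 0.0871) with overlapping groups, a call that library size scaling ended (adjusted p = 0.088).

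Among 22 tested negative regulators other than the members, 3 were higher and 4 lower, and 6 and 1 by library size. Tnip3, which encodes an A20-binding protein, had 176, 184, 180.2 and 169.9 CPM in the control libraries and 122, 134, 133 and 133 CPM with tranilast. It thus fell beside Tnfaip3 (log2 fold change -0.44, SE 0.0386, edgeR adjusted p = 1.86e-08). Tax1bp1, an adaptor of A20, was higher instead (0.21, SE 0.0344), as were Tollip (0.30, SE 0.0442) and Tnfaip8l2 (0.60, SE 0.0615). Usp18 ranged from 95.7 to 189 CPM in control and from 71.6 to 147 CPM in tranilast libraries (-0.50, SE 0.186, edgeR adjusted p = 0.0297). Its difference was not called without control replicate 1, 2 or 3 or tranilast replicate 2 or 4, nor by DESeq2. The call was also lost by library size (edgeR adjusted p = 0.0801), with upper-quartile scaling and on log2 FPKM, so that 10 of 20 alternatives kept it. Rnf11, a partner of A20 (-0.15, SE 0.0506, adjusted p = 0.0171), lost its call without control replicate 4 or tranilast replicate 4 and by library size.

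Of 15 tested receptors 3 were higher and 7 lower, and 5 and 2 by library size. Tnfrsf11a, the receptor RANK that signals through both branches, had 109, 119, 106 and 105 CPM in the control libraries and 57.2, 56.5, 58.5 and 59.9 CPM with tranilast. Its fall of 0.92 on the log2 scale (SE 0.0466, edgeR adjusted p = 1.08e-11) stood against a rise of Tnfrsf1b, the second TNF receptor, from 23.7 ± 1.46 to 42.6 ± 2.42 CPM (0.84, SE 0.0650, adjusted p = 3.75e-09). Of the 7 Toll-like receptors tested 2 were higher and 4 lower, and 3 and 1 by library size. Tlr2 (0.32, SE 0.0295) and Tlr4 (0.21, SE 0.0484) were higher, and Tlr9 was lower (-0.53, SE 0.0944), all with either scaling. Tlr1 (-0.25, SE 0.0852, edgeR adjusted p = 0.0173) and Tlr7 (-0.14, SE 0.0436, adjusted p = 0.0113) were lower by TMM and not called by library size (adjusted p = 0.180 and 0.665). Tlr3 stood at -0.37 (SE 0.128, adjusted p = 0.0193) with overlapping groups, and was not called without control replicate 2 or tranilast replicate 2 or 4, nor by library size. Among 4 tested ligands 3 were lower (2 by library size). Ltb, the lymphotoxin subunit that activates the non-canonical branch, went from 58.9 ± 4.48 to 36.0 ± 0.858 CPM (-0.71, SE 0.0574, edgeR adjusted p = 7.05e-09). Il18 stood at -0.49 (SE 0.115), and Tnf fell from 146.3 ± 7.85 to 128.0 ± 4.31 CPM (-0.19, SE 0.0415, adjusted p = 0.000686), a call that library size scaling ended (adjusted p = 0.115).

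Of 34 tested target genes of NF-kB 10 were higher (29.4%) and 12 lower (35.3%), beside 28.2% and 28.8% of all tested genes. By library size 12 were higher and 9 lower, beside 42.8% and 17.6% of all tested genes. The log2 fold changes of the target genes spanned a wider range than those of the members, in a list of more genes. Tnfaip2, a TNF-induced gene, rose most, from 52.9 ± 2.83 to 130.5 ± 5.09 CPM (log2 fold change 1.30, SE 0.0462, edgeR adjusted p = 6.96e-14). Higher as well were Cd83, a marker of activated antigen-presenting cells (0.88, SE 0.0905), and the chemokine genes Ccl3 (0.79, SE 0.0743) and Cxcl2 (0.66, SE 0.103). Plau, the urokinase gene (-0.73, SE 0.0518), Mmp9, a secreted protease gene (-0.73, SE 0.147), and the chemokine gene Cxcl10 (-1.14, SE 0.227, overlapping groups) were lower. Target genes thus moved in both directions under either scaling, as did all tested genes.

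Transcripts that the study measured by qPCR were partly too rare here. Ccl2 had between 12 and 42 counts in control and between 5 and 15 in tranilast libraries, and its log2 fold change of -1.44 (SE 0.459, edgeR adjusted p = 0.0123) became -0.97 (adjusted p = 0.0842) without control replicate 2. Il1b had between 0 and 5 counts and Il6 between 0 and 1 in any library, and at this depth no difference between the groups could be detected. Cxcl2 was well detected, with 152 to 195 counts in control and 202 to 326 in tranilast libraries, and was among the target genes that were higher with tranilast (0.66, edgeR adjusted p = 2.97e-05).

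**Figure D5:**
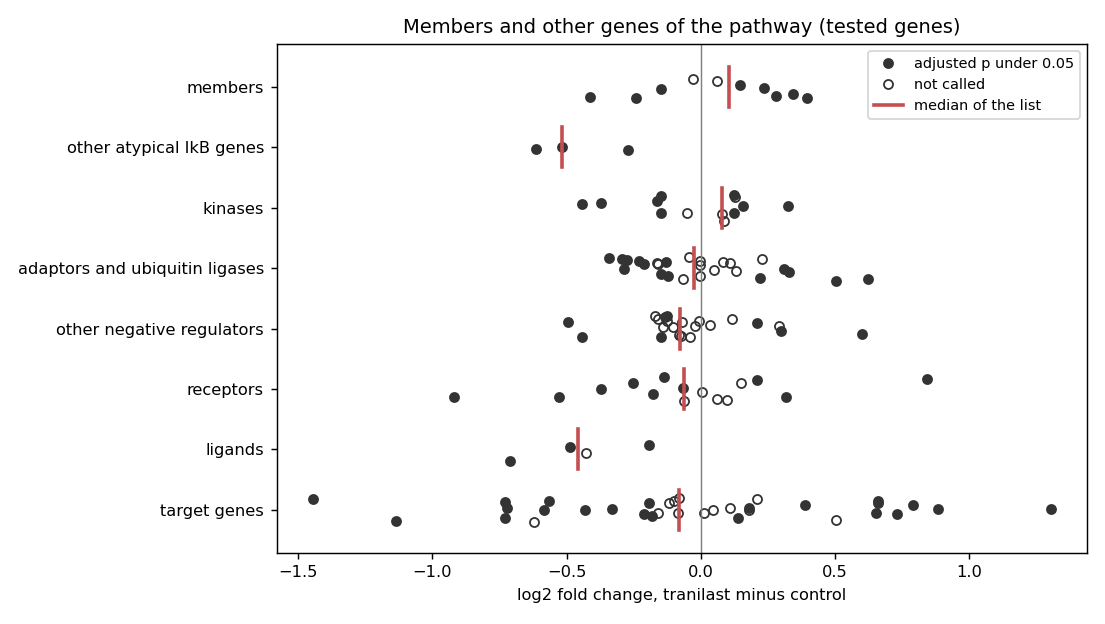
Log2 fold change (tranilast minus control, horizontal axis) of the tested members and of the tested genes of 7 other lists of the pathway. Filled points had an adjusted p under 0.05, open points did not, and the red line is the median of each list. The members lie between -0.41 and 0.39. The target genes, a longer list, span from -1.44 (Ccl2, with 5 to 42 counts) to 1.30 and lie on both sides of 0.

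Genes whose pattern over the 8 libraries was most like that of a member were looked up for the called member with the highest and for the one with the lowest change, by Pearson correlation of log2(CPM + 0.1). These correlations are descriptions over 8 libraries that share a group difference and a depth difference. For Relb they included Lilrb4a (r = 0.987, log2 fold change 0.65) and Smim19 (r = 0.972, 0.34), and 73 genes had an r above 0.9. For Tnfaip3 they were S100a10 (r = 0.998, -0.53), Eef1e1 (r = 0.998, -0.36) and Tmed10 (r = 0.997, -0.31), and 1591 genes passed that level.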

How the data were processed

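The authors deposited 1 table with, per gene and library, an estimated count of reads, which is whole for 92.7% to 93.9% of values, and an FPKM value scaled by the authors for transcript length and depth. RNA was extracted with TRIzol and sequenced as poly-A selected paired-end libraries. The labels and the methods name different Illumina instruments. Aligner, counter, strand setting and genome build are not given in the sources used here.

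Estimated counts were rounded, filtered with filterByExpr by group, scaled by TMM and compared over 10770 genes with edgeR 4.0.16 (quasi-likelihood, no covariate, Benjamini-Hochberg) in R 4.3.3. CPM values are TMM-scaled, and the spread between libraries that edgeR terms the biological coefficient of variation was 5.09%. For single members, log2(CPM + 0.1) was permuted between the groups in an exact two-sided test, and levels were compared between genes on the deposited FPKM. DESeq2 1.42.0, limma 3.58.1 (voom, and trend on log2 FPKM with 1 or 0.1 added), other scalings (RLE, upper quartile, library size), other filters, a replicate block, each library left out, thinning to the smallest library and removal of GC and length trends were alternatives, the last 2 chosen after seeing the data. Python 3.11.15, pandas 2.3.3, numpy 2.4.6 and scipy 1.17.1 were also used. Coordinates are 1-based, from GENCODE M21 on GRCm38, joined on Ensembl identifiers (21973 found, 90 not found). Promoter windows are from RefSeq on GRCm38.p6, matched by symbol.

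The members and the pathway lists were chosen with earlier results of these data known. Named were all members, the 3 highest and 3 lowest called genes of each pathway list with a mean count of at least 50, Ikbkb, Tnf, Il1b, Il6, Ccl2 and Cxcl2, of the markers Alb, Lyz2, Csf1r, Adgre1 and Clec4f, and the 3 nearest genes of 2 members, of which 1 is not reported here. Sirt2, Psd, Cd163, Vsig4, Timd4, Trf, Tlr1 and Tlr7 were named after their values were seen.

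Between replicates the chi-square per gene was 2.51 to 5.47, above counting noise. Each library was counted as 1 sample, although these values do not show whether the libraries came from separate animals. Run on simulated data for this comparison (10722 genes, 200 changed by a log2 fold change of 1), the test recovered 199 and made 14 false calls. Recovery at the size of the members' differences, at most 0.41 on the log2 scale, was not tested. A share of called genes as high as the 57.0% found here was not tested either.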

Additional observations from a re-analysis of the deposited data

Results flagged for a closer look

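In 5 of the 104 groups of 4 libraries examined, 1 library stood apart from the other 3 by Dixon's criterion, and chance alone flags about 1 in 20 groups, or 5.2 here. None of them concerned a subunit or inhibitor gene described above as a member. Btrc had 12.1 CPM in control replicate 4 and 14.2 to 14.3 CPM in the other control libraries. Traf5 had 9.02 CPM in tranilast replicate 3 against 6.04 to 6.37 CPM in the other tranilast libraries. Tranilast replicate 1 was the library apart for Ltb (34.7 CPM against 36.4 to 36.5), for Tnip3 (122 CPM against 133 to 134) and for Cxcl10 (12.9 CPM against 5.74 to 6.15), the last being the library that made the Cxcl10 groups overlap.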

How the results depend on the processing

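Nfkb1, Nfkb2, Relb and Tnfaip3 kept direction and call under all 20 alternatives. Nfkbia was no longer called by library size (-0.0338, adjusted p = 0.424), on log2 FPKM with 0.1 added (-0.0346) or 1 added (-0.0343), or with upper-quartile factors (-0.0831, adjusted p = 0.0523), all of which differ from TMM in the level set as no change. Rel, not called under any, turned positive under the same settings (0.0871, 0.0869, 0.0800 and 0.0379) and without control replicate 4 (0.00199, range -0.0518 to 0.00199 over the libraries left out). Nfkbiz gained a call by library size (0.178, adjusted p = 0.0320). Rela lost its call with GC and length trends removed (0.0782, adjusted p = 0.209), for which the cause was not tested. With 1 library left out, log2 fold changes ranged from 0.0991 to 0.206 for Rela, 0.166 to 0.299 for Nfkbib and 0.218 to 0.340 for Nfkbie, members called from 6 to 8 and those called higher from 3 to 5, the 3 coming without control replicate 1, control replicate 2 or tranilast replicate 3. The fold threshold of 1.5 left 0 members and 120 genes. Over all genes, library size gave 4613 higher and 1893 lower, and the FPKM fits 1663 (0.1 added) and 1660 (1 added) lower. Csf1r changed sign in both FPKM fits (0.00711 and 0.00711). Of 839 values for the 42 other named genes, 784 kept direction and side of the threshold, 53 lost the call and 2 reversed, in 13 genes. Same-numbered libraries showed little shared deviation (correlations -0.0569, -0.0384, 0.00518 and 0.1). This does not exclude a pairing, and the labels do not say whether the numbers are shared between the groups. A replicate block left 6009 genes and 8 members called (Nfkb1 -0.239, Nfkb2 0.341, Rel -0.0294, Rela 0.144, Relb 0.391, Nfkbia -0.151, Nfkbib 0.242, Nfkbie 0.278, Nfkbiz 0.0605, Tnfaip3 -0.411). Depth limits Il1b, Il6 and Ccl2, not the members.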
